A study of Mus musculus with 16 samples.

Results

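Epithelial identity genes and the regulators and markers of epithelial-mesenchymal transition (EMT) were followed in mouse colorectal liver metastases. The set was a fixed list of 10 genes among the 21959 genes counted: Epcam, Cdh1, Krt8, Krt18 and Krt19 on the epithelial side, Vim on the mesenchymal side, and the transcription factors Zeb1, Zeb2, Snai1 and Twist1. All 10 are protein-coding, passed the filter on low counts and were tested with the other genes that passed, 13968 in all. In GRCm39, Krt8 lies at chr15:101905133-101912917 and Krt18 at chr15:101936615-101940462, Epcam at chr17:87943407-87958557, Cdh1 at chr8:107329941-107396880, Krt19 at chr11:100031636-100039491, Vim, Zeb2 and Snai1 on chromosome 2 and Twist1 on chromosome 12.

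RNA came from the liver metastases of 16 male C57BL/6 mice, with 4 mice per group. All had received MC38 cells, a line derived from a colon adenocarcinoma of this strain. The cells were injected into the spleen of 6-week-old wild-type mice, from where they seed the liver, so the controls carried the same injected line as the treated groups. The control group received PBS, the SB525334 group 20 mg/kg of this type I TGF-β receptor inhibitor by daily gavage, the KN046 group 10 mg/kg of this PD-L1 and CTLA-4 blocking bispecific antibody into the peritoneum 2 times a week, and the combination group both agents at those doses. It was bulk RNA, in which tumor cells, stroma and any adjoining liver in the sample are read together, and in which fewer cells of a type cannot be told apart from less RNA per cell.

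Epithelial cells are held together by the adhesion molecules E-cadherin (Cdh1) and EpCAM (Epcam), and their cytoskeleton is built of keratin pairs, of which Krt8 with Krt18 is the pair of simple epithelia and the only keratin pair of hepatocytes. In EMT these genes are repressed by the transcription factors of the Snail, Zeb and Twist families while vimentin (Vim), the intermediate filament of mesenchymal cells, is raised. TGF-β is the best known inducer of that program, and Snail and Zeb proteins repress epithelial genes through E-boxes, short DNA elements that include CAGGTG.

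The reference promoters of the keratin pair, of Epcam and of Vim are printed because the first 3 genes were called lower with the combination and Vim was not, and because the E-box is the element through which the transcription factors of the set act on such genes. Each sequence is 300 bases of the RefSeq promoter table, 250 before the start that the table gives and the rest after it, found at a single place in GRCm39, and capitals mark CAGGTG on either strand (read as CACCTG on the other). The Krt8 window is chr15:101912728-101913027 on the minus strand, the Krt18 window chr15:101936401-101936700 on the plus strand, the Epcam window chr17:87943157-87943456 on the plus strand and the Vim window chr2:13578872-13579171 on the plus strand. The table's start can differ from that of the GENCODE gene: for Krt8, Krt18 and Vim it lies inside the annotated gene, and the Vim window lies wholly within it.
Krt8: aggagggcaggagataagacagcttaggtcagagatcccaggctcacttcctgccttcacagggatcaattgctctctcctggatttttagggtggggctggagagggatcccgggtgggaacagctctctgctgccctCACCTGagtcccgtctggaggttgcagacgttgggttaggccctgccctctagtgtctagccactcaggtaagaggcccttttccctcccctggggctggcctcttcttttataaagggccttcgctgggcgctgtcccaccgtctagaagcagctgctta
Krt18: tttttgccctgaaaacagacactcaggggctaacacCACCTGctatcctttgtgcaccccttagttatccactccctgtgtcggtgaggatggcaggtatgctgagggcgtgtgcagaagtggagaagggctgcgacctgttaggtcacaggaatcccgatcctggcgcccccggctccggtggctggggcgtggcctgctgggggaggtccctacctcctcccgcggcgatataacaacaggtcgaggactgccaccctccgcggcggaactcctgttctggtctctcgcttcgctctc
Epcam: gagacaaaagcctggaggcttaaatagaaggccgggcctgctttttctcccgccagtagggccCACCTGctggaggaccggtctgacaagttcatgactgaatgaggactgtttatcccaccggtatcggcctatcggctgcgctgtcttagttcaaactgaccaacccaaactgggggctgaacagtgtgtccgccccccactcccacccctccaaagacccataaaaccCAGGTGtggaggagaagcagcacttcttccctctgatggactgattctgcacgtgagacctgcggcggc
Vim: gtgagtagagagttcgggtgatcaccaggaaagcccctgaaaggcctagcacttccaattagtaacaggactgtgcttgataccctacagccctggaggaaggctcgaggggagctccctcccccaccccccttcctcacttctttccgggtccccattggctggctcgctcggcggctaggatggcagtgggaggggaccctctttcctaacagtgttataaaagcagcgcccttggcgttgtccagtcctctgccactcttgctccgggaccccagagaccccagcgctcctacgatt

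The Krt8 window held 1 such E-box, 111 bases before the table's start, and the Krt18 window held 1, 214 bases before it. Epcam had 2, at 187 and 19 bases before its table start, and the Vim window had none of these letters. Entries were in the table for 7 of the 10 genes, and Cdh1, Krt19 and Zeb1 had none. Cdh1 was also called lower with the combination, but its promoter could not be shown. Whether the motif bears on the level of any gene was not tested. The Snai1 entry also held the motif, and the entries of Twist1 and Zeb2 did not. Across all 32851 promoters of that length in the table, 6640 (20.2%) held CAGGTG on either strand, so a match is a common feature and describes letters, not binding.

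Libraries held 18368994 to 23877131 counts. Values are in CPM, the usual depth-scaled count unit, after correction for library composition. Control mice 1 and 2 resembled each other, as did control mice 3 and 4, more than any other 2 mice of a group, with a median chi-square per gene of 1.25 and 0.956 against at least 2.82 in the 22 other within-group pairs, so the 4 controls may carry less independent information than their number. Merging each similar pair into 1 control left the same members called. Nothing in the labels gives a sequencing batch.

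Vim was by far the most abundant of the 10 genes. Per kilobase of transcript, the scale on which genes can be compared, its level in control tumors was 1685.3 ± 172.2 CPM per kb (SD, n = 4). Krt18 followed at 59.9 ± 21.1 and Krt8 at 42.5 ± 16.4 CPM per kb, which overlapped. Twist1 (27.9 ± 4.63), Snai1 (22.2 ± 1.79) and Zeb2 (17.7 ± 3.47 CPM per kb) followed, then Zeb1 at 12.9 ± 1.64, and the mice of each of these 4 genes overlapped those of its neighbor among them. Cdh1 (4.63 ± 1.33), Krt19 (2.15 ± 0.928) and Epcam (1.49 ± 0.883 CPM per kb) were lowest. The ratio of Vim to Cdh1 per length was 266.3 to 595.5 in the control mice and 245.5 to 634.7 with KN046, so transcripts of the mesenchymal filament exceeded those of E-cadherin in each mouse without SB525334. It was 502.9 to 952.2 with SB525334 and 728.2 to 1760.7 with the combination.

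The order in combination tumors was different at its epithelial end. Vim (2172.9 ± 272.6), Twist1 (35.4 ± 6.81), Snai1 (24.2 ± 1.45), Zeb2 (19.1 ± 2.35) and Zeb1 (12.0 ± 0.835 CPM per kb, each n = 4) now led, while Krt18 at 0.233 ± 0.239 and Krt8 at 0.138 ± 0.21 CPM per kb had moved from just behind Vim to the bottom, beside Epcam at 0.21 ± 0.259. The plot of CPM for each mouse shows the 10 genes side by side.

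**Figure D1:**
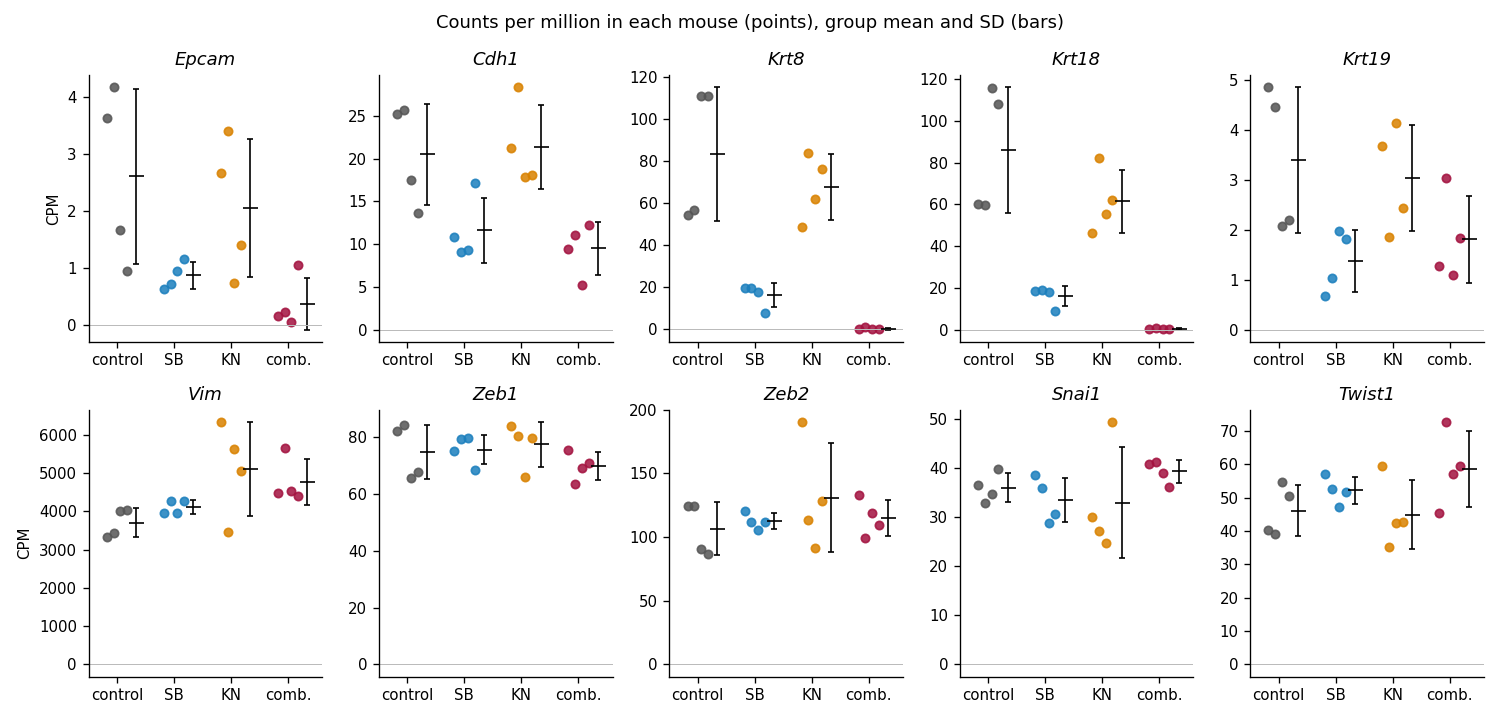
Each panel plots the CPM of 1 gene on a linear axis that includes 0, with 1 point for each of the 4 mice of the control, SB525334 (SB), KN046 (KN) and combination (comb.) groups and a bar for the group mean and SD. Krt8 and Krt18 lie at or below 0.883 CPM in all combination mice and at or below 19.8 CPM in all SB525334 mice, while the points of Zeb1, Zeb2 and Snai1 overlap between the control group and each treated group.

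The keratin pair of simple epithelia gave the largest differences. Krt8 was at 54.3, 56.8, 110.8 and 111.2 CPM in control mice 1 to 4 and at 19.8, 19.7, 17.7 and 7.67 CPM with SB525334. With KN046 it was at 48.5, 83.9, 61.9 and 76.2 CPM, and with the combination at 0.103, 0.883, 0 and 0.0943 CPM, which were 2, 16, 0 and 2 counts. All SB525334 mice were thus below all controls, all combination mice were below all SB525334 mice, and the KN046 mice lay within the control range except for mouse 1.

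Krt18, the partner of Krt8 in the same filament and its neighbor on chromosome 15 (GRCm39), moved with it. It was at 60.3, 59.5, 115.9 and 108.3 CPM in the control mice and at 18.6, 18.8, 17.8 and 8.79 CPM with SB525334. Levels with KN046 were 46.5, 82.0, 55.5 and 62.2 CPM, and with the combination 0.308, 0.828, 0.109 and 0.0943 CPM, from 6, 15, 2 and 2 counts. The SB525334 and combination mice again lay below all controls without overlap, KN046 mice 1 and 3 lay just below the control range, and the same SB525334 mouse, mouse 4, was lowest for both genes.

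SB525334 alone lowered both keratins: Krt8 by a log2 fold change of -2.36 (95% interval -3.12 to -1.59), which is 5.13-fold, with an adjusted p of 0.000139 in edgeR's quasi-likelihood test with Benjamini-Hochberg adjustment, and Krt18 by -2.43 (-3.07 to -1.78), 5.37-fold, adjusted p 1.78e-05. KN046 alone gave -0.30 (-1.02 to 0.42) for Krt8 and -0.48 (-1.09 to 0.13) for Krt18, adjusted p 0.633 and 0.329 in edgeR. The combination lowered Krt8 by a fitted log2 fold change of -8.29 (-9.47 to -7.10, adjusted p 4.64e-09) and Krt18 by -8.02 (-8.99 to -7.04, adjusted p 1e-09) against control. At so few counts the size of a fitted fold depends on the prior count, so the pooled level is given as well: Krt8 was at 0.259 CPM over the 4 combination mice (exact 95% Poisson interval 0.158 to 0.40, counting error only) against 81.5 CPM over the controls (79.6 to 83.5), and Krt18 at 0.324 (0.21 to 0.478) against 84.4 CPM (82.5 to 86.4). Mouse 2 gave 16 of the 20 combination counts of Krt8 and 15 of the 25 of Krt18, and without it the fitted log2 fold changes against control were -10.13 and -8.92.

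Against the single agents, the combination was lower for both keratins too. The fitted log2 fold change against KN046 was -7.99 ± 0.56 (SE) for Krt8 and -7.54 ± 0.46 for Krt18 (edgeR adjusted p 8.63e-09 and 1.81e-09), and against SB525334 it was -5.93 ± 0.57 and -5.59 ± 0.46 (edgeR adjusted p 2.54e-06 and 4.69e-07). The difference between the SB525334 effect with KN046 and without it, tested as an interaction, was -5.63 (-7.08 to -4.18, adjusted p 7.66e-05) for Krt8 and -5.11 (-6.30 to -3.92, adjusted p 2.73e-05) for Krt18. Within a mouse, the ratio of Krt8 to Krt18 per length stayed between 0.64 and 0.899 in the 12 control, SB525334 and KN046 mice, so both partners of the filament differed between groups by similar factors.

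Hepatocyte genes moved with the keratin pair. The summed level of 15 hepatocyte markers, among them Alb and the apolipoproteins Apoa1 and Apoa2, was 14036.5 to 15781.1 CPM in the controls and 8886.4 to 18027.7 with KN046, but 328.5 to 1807.8 with SB525334 and 12.8 to 21.2 with the combination. All 15 were called lower with SB525334, against 9.22% of all genes tested, and with the combination, against 9.74%, and 0 with KN046, against 2.4%. In the combination mice 1 of the 15, Serpina1c, was at 0 in all, and Alb, the most abundant, was at 9.52 ± 1.88 CPM (SD, n = 4) against 8185.5 ± 268.2 in control. The SB525334 mouse with the lowest keratins, mouse 4, also had the lowest hepatocyte sum of its group, 328.5 CPM. The part of hepatocyte RNA in the keratin result was not tested.

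Relative to the hepatocyte sum, the keratins were higher with SB525334. Per 1000 CPM of hepatocyte markers, Krt8 stood at 3.87 to 7.1 CPM in the controls, 3.43 to 5.69 with KN046 and 10.9 to 23.3 with SB525334, where all mice were above all controls. Krt18 stood at 4.13 to 7.42, 3.08 to 5.23 and 10.4 to 26.7 CPM in the same order. With the combination the ratio ran from 0 to 52.3 for Krt8 and from 5.15 to 49.0 for Krt18, on counts of 16 or fewer per mouse.

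**Figure D2:**
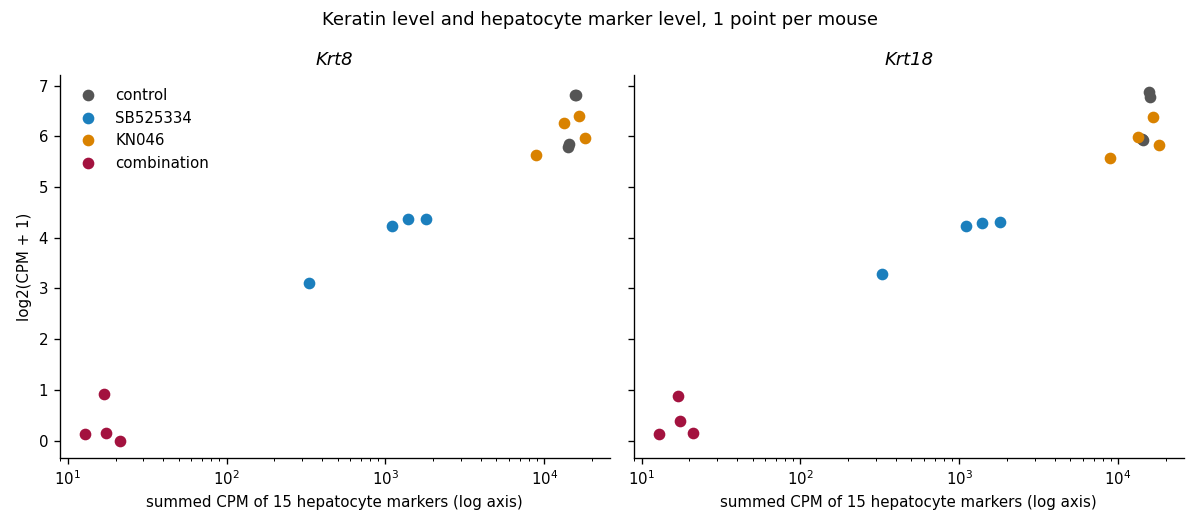
Log2(CPM + 1) of Krt8 (left) and Krt18 (right) against the summed CPM of 15 hepatocyte markers on a log axis, 1 point for each of the 16 mice. Control and KN046 mice lie together at the upper right, SB525334 mice between 328.5 and 1807.8 CPM of hepatocyte markers, and combination mice at the lower left between 12.8 and 21.2 CPM.

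Markers of other epithelial cells were also read. Among 7 cholangiocyte markers, Pkhd1 was at 2.73 ± 0.714 CPM in control and 0.343 ± 0.119 with SB525334 (SD, n = 4), and Pkhd1 and Cftr were at 0 in all combination mice. The summed cholangiocyte level, which is mostly Sox9, was 256.4 to 266.7 CPM in control, 138.6 to 227.0 with SB525334, 186.9 to 562.7 with KN046 and 195.0 to 231.9 with the combination. Of 5 markers tested, 3, 0 and 4 were called lower with SB525334, KN046 and the combination, against 9.22%, 2.4% and 9.74% of all genes tested. The 7 mesothelial markers, whose sum is mostly Msln, summed to 134.9 to 148.8 CPM in control, 130.0 to 145.7 with SB525334, 112.0 to 294.1 with KN046 and 120.3 to 176.8 with the combination, with Lrrn4 and Muc16 at 0 in all combination mice. Of 5 tested, 1 was called lower and 0 higher with the combination, against 9.74% and 1.37% of all genes tested. It was Gpm6a, named after its value was seen, at 0.561 ± 0.329 CPM in control and 0.0482 ± 0.0667 with the combination (-3.32, edgeR adjusted p 0.0182). SB525334 and KN046 each called 0 of the 5. MC38 is of colon origin, yet the 12 colon epithelial markers summed to only 19.0 to 26.4 CPM in control, 18.3 to 22.5 with SB525334, 22.5 to 42.2 with KN046 and 16.2 to 21.4 with the combination. Of these, the intestinal identity factor Cdx2 had a highest value of 0.0507 CPM in any control mouse and was at 0 in the other groups. The part of these cells in the keratin result was not tested.

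The adhesion molecules Epcam and Cdh1 were lower too, by less. Epcam was at 3.63, 4.17, 1.67 and 0.941 CPM in the control mice and at 0.633, 0.717, 0.947 and 1.16 CPM with SB525334. It was at 2.66, 3.40, 0.726 and 1.40 CPM with KN046 and at 0.154, 0.221, 0.0546 and 1.04 CPM with the combination, the last from 3, 4, 1 and 22 counts. Combination mouse 4 lay above control mouse 4, so the groups overlapped. The combination was lower than control by a log2 fold change of -2.77 (-4.19 to -1.35, edgeR adjusted p 0.0085) and lower than KN046 by -2.43 (-3.85 to -1.0, edgeR adjusted p 0.0158). Mouse 4 gave 22 of the 30 combination counts, and without it these log2 fold changes were -4.13 and -3.78 (edgeR adjusted p 0.000541 and 0.00142). The call against KN046 was lost without combination mouse 2 (adjusted p 0.0511). With SB525334 alone Epcam gave -1.59 (-2.87 to -0.30, edgeR adjusted p 0.137) and with KN046 alone -0.34 (-1.57 to 0.89, edgeR adjusted p 0.758), neither past the threshold.

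Cdh1, which encodes the E-cadherin of adherens junctions, was at 25.2, 25.7, 17.5 and 13.7 CPM in the control mice and at 10.8, 9.04, 9.34 and 17.1 CPM with SB525334. It was at 21.3, 28.4, 17.9 and 18.1 CPM with KN046 and at 9.45, 11.1, 5.19 and 12.2 CPM with the combination. All combination mice lay below all control and all KN046 mice, and the SB525334 mice overlapped the controls through mouse 4. The log2 fold change of the combination was -1.11 (-1.69 to -0.53, edgeR adjusted p 0.0101) against control and -1.17 (-1.75 to -0.59, edgeR adjusted p 0.0055) against KN046. SB525334 alone gave -0.82 (-1.40 to -0.25, edgeR adjusted p 0.0707), past the threshold without SB525334 mouse 4 (-1.07, adjusted p 0.0168), without control mouse 4 (-0.97, adjusted p 0.034) and without combination mouse 3 (adjusted p 0.0401). The interaction was -0.35 (-1.16 to 0.46, edgeR adjusted p 0.686) for Cdh1 and -0.84 (-2.73 to 1.06, edgeR adjusted p 0.676) for Epcam, neither past the threshold.

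Control mice 1 and 2 had more Epcam and Cdh1 than control mice 3 and 4, and less Krt8 and Krt18, so no single order of the controls held for all epithelial genes. Krt19, the keratin of ducts, split them like Epcam. It was at 4.86, 4.45, 2.08 and 2.19 CPM in control and at 0.678, 1.04, 1.98 and 1.81 CPM with SB525334, where all mice were below all controls. With KN046 it was at 3.68, 1.85, 4.14 and 2.44 CPM and with the combination at 1.28, 3.03, 1.09 and 1.84 CPM, both overlapping the control mice. The log2 fold changes against control were -1.30 (-2.19 to -0.42, edgeR adjusted p 0.0626) with SB525334, -0.17 (-1.03 to 0.68, edgeR adjusted p 0.833) with KN046 and -0.91 (-1.79 to -0.03, edgeR adjusted p 0.208) with the combination. The SB525334 value for Krt19 crossed the threshold without control mouse 3 (adjusted p 0.0433), control mouse 4 (0.0486) or combination mouse 2 (0.0499).

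Vimentin transcripts were not called lower in any treated group. Vim was at 3315.5, 3427.3, 4004.4 and 4036.1 CPM in control, 3962.4, 4259.6, 3944.7 and 4267.9 CPM with SB525334, 6335.3, 3456.3, 5618.6 and 5040.5 CPM with KN046, and 4481.6, 5658.8, 4519.8 and 4400.9 CPM with the combination. All combination mice lay above all controls and 3 of 4 KN046 mice did, KN046 mouse 2 being the exception. The log2 fold changes against control were 0.15 (-0.19 to 0.49) with SB525334, 0.47 (0.13 to 0.81) with KN046 and 0.37 (0.02 to 0.71) with the combination, with edgeR adjusted p of 0.705, 0.10 and 0.189. The KN046 value for Vim crossed the threshold without KN046 mouse 2 (0.62, adjusted p 0.00816) and in DESeq2 (0.49, adjusted p 0.0317).

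The EMT transcription factors showed no called difference in these comparisons. Zeb1, a repressor of Cdh1, was at 82.1, 84.3, 65.8 and 67.8 CPM in control, 75.1, 79.3, 79.9 and 68.6 with SB525334, 83.9, 80.6, 66.0 and 79.9 with KN046 and 75.4, 63.7, 69.2 and 71.0 CPM with the combination. The groups overlapped. Its log2 fold changes against control were 0.01 (-0.21 to 0.23), 0.05 (-0.17 to 0.27) and -0.10 (-0.32 to 0.12) in the order SB525334, KN046 and combination. These intervals lie within 0.32 of 0 on the log2 scale.

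Zeb2, the other Zeb family repressor, was at 124.6, 124.7, 90.7 and 86.3 CPM in control, 120.6, 111.9, 105.6 and 112.0 with SB525334, 190.5, 113.1, 91.3 and 128.6 with KN046 and 132.8, 99.3, 118.6 and 109.7 CPM with the combination. KN046 mouse 1 was the highest of the 16, and all 4 groups overlapped. The log2 fold changes were 0.08 (-0.30 to 0.46), 0.30 (-0.08 to 0.67) and 0.11 (-0.27 to 0.49).

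Snai1, which encodes Snail, was at 36.6, 32.9, 34.7 and 39.7 CPM in control, 38.5, 36.0, 28.7 and 30.7 with SB525334, 30.1, 27.1, 24.8 and 49.4 with KN046 and 40.8, 41.2, 39.0 and 36.1 CPM with the combination. The KN046 group held both the lowest and the highest mouse. The log2 fold changes for Snai1 were -0.10 (-0.46 to 0.25), -0.13 (-0.49 to 0.23) and 0.13 (-0.23 to 0.48). Without KN046 mouse 4, Snai1 was called higher in the combination than with KN046 (0.54, adjusted p 0.0045) and its interaction was called (0.63, adjusted p 0.0378).

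Twist1 was at 40.3, 39.1, 54.7 and 50.4 CPM in control, 56.9, 52.6, 47.3 and 51.7 with SB525334, 59.4, 35.1, 42.4 and 42.7 with KN046 and 45.3, 72.7, 56.9 and 59.4 CPM with the combination. Above all controls lay 3 of 4 combination mice, and mouse 1 did not. The log2 fold changes for Twist1 were 0.18 (-0.16 to 0.52), -0.04 (-0.38 to 0.30) and 0.35 (0.00 to 0.69, edgeR adjusted p 0.221) against control, and 0.38 (0.04 to 0.73, edgeR adjusted p 0.0899) for the combination against KN046. The last was called without KN046 mouse 1 (0.56, adjusted p 0.0169), without combination mouse 1 (0.49, adjusted p 0.0339) and under scaling to the total count (0.41, adjusted p 0.0415).

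**Figure D3:**
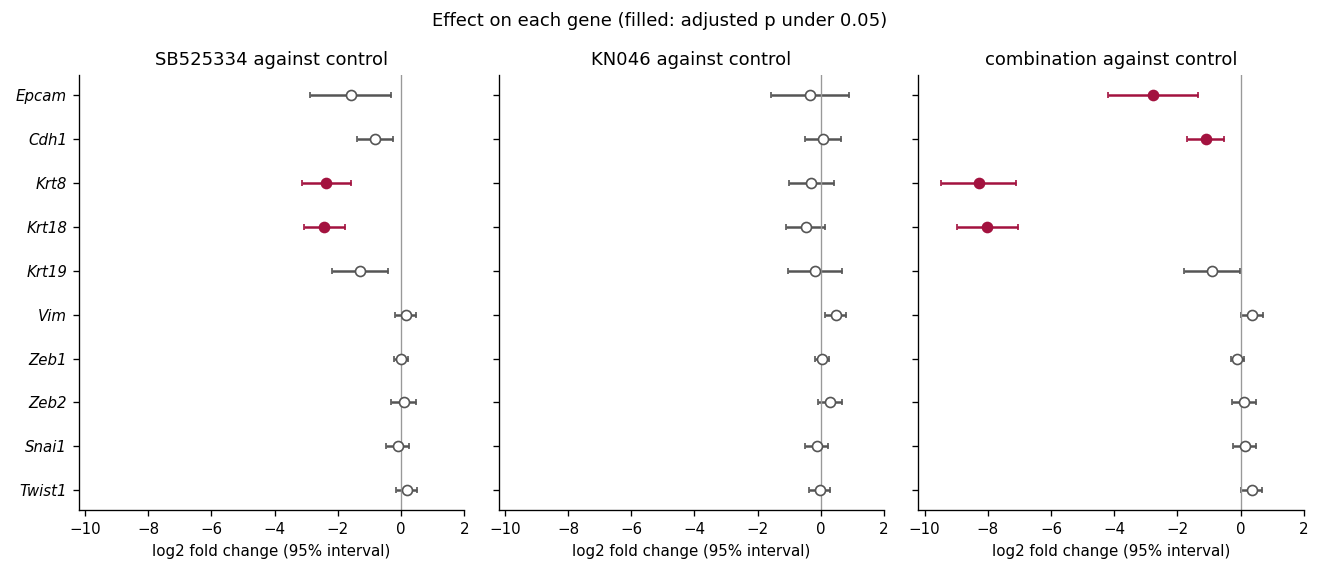
Log2 fold change of each of the 10 genes against control in edgeR's fit, with its 95% interval, for SB525334, KN046 and the combination (4 mice against 4 in each panel). Filled points passed an adjusted p of 0.05: Krt8 and Krt18 with SB525334, none with KN046, and Epcam, Cdh1, Krt8 and Krt18 with the combination, all to the left of 0.

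Counted over the set, SB525334 alone called 2 of 10 genes lower, Krt8 and Krt18, against 9.22% of all genes tested, and 0 higher, against 0.394%. By unadjusted p under 0.05, 5 were lower and 0 higher, and DESeq2 called 4 lower (Cdh1, Krt19, Krt8 and Krt18) and 0 higher. KN046 alone called 0 lower against 2.4% of all genes and 0 higher against 1.6%, where an unadjusted p under 0.05 gave 0 lower and 1 higher, Vim, as did DESeq2. The combination called 4 lower than control against 9.74% and 0 higher against 1.37%, with 5 lower and 2 higher by unadjusted p and 4 lower and 0 higher in DESeq2.

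Against KN046, the combination called the same 4 genes lower, where 14.5% of all genes were called lower, and 0 higher, where 9.89% were. DESeq2 gave the same counts, and 1 gene, Twist1, was higher by unadjusted p. Against SB525334 it called 2 lower (Krt8 and Krt18) against 3.03% and 0 higher against 0.544%, and the interaction called those 2 lower against 2.55% and 0 higher against 1.73%. In both, unadjusted p and DESeq2 gave the same 2 lower and 0 higher. The median log2 fold change of the 10 genes was -0.46, -0.09 and -0.51 for SB525334, KN046 and the combination against control, beside medians of 0.001, -0.026 and 0.013 over all genes tested. The comparisons with control share the same 4 control mice.

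Among the wider keratin family the fall was not general. Of 54 keratin genes counted, 22 were at 0 in every mouse and 10 reached 1 CPM on average. The most abundant was Krt14, a keratin of the basal layer of stratified epithelia, at 251.4 ± 10.1 CPM in control, 354.0 ± 34.1 under SB525334, 207.6 ± 44.3 under KN046 and 368.1 ± 71.8 with the combination (SD, n = 4). All SB525334 and all combination mice were above all controls for Krt14, with log2 fold changes of 0.49 (0.17 to 0.81, edgeR adjusted p 0.0485) and 0.55 (0.23 to 0.87, edgeR adjusted p 0.0222). The Krt14 call with SB525334 did not hold with any 1 of the control mice left out, with SB525334 mouse 1, 3 or 4, KN046 mouse 4 or combination mouse 3 left out, with the similar controls merged (adjusted p 0.248) or with a filter of 1 CPM on average (adjusted p 0.0534). The combination call for Krt14 did not hold without control mouse 1 or 2, without combination mouse 2 or 4, or with the similar controls merged (adjusted p 0.15). In each case the direction of Krt14 stayed upward.

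Krt8 and Krt18 together made up 27.2% to 41.5% of all keratin CPM in control mice and 27.2% to 39.5% with KN046. Their share was 3.39% to 9.19% with SB525334 and 0.027% to 0.341% with the combination. Krt14 made up 47.2% to 58.1% in control and 80.9% to 87.4% with the combination. Krt7, a ductal keratin, was at 1.80 ± 1.36 CPM in control and 0.363 ± 0.345 with the combination (-2.29, -3.63 to -0.96, edgeR adjusted p 0.0222), with overlapping mice. That Krt7 call was lost without control mouse 1 (adjusted p 0.0732) or 2 (0.106), without combination mouse 2 (0.074), 3 (0.082) or 4 (0.0762), in a fit of only the groups compared (0.0714) and with the similar controls merged (0.0512). Of the 4 other listed keratins that could be tested, 1 was called higher, against 0.394% of all genes tested, and 0 lower, against 9.22%, with SB525334 (0 lower in DESeq2, 1 by unadjusted p).

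**Figure D4:**
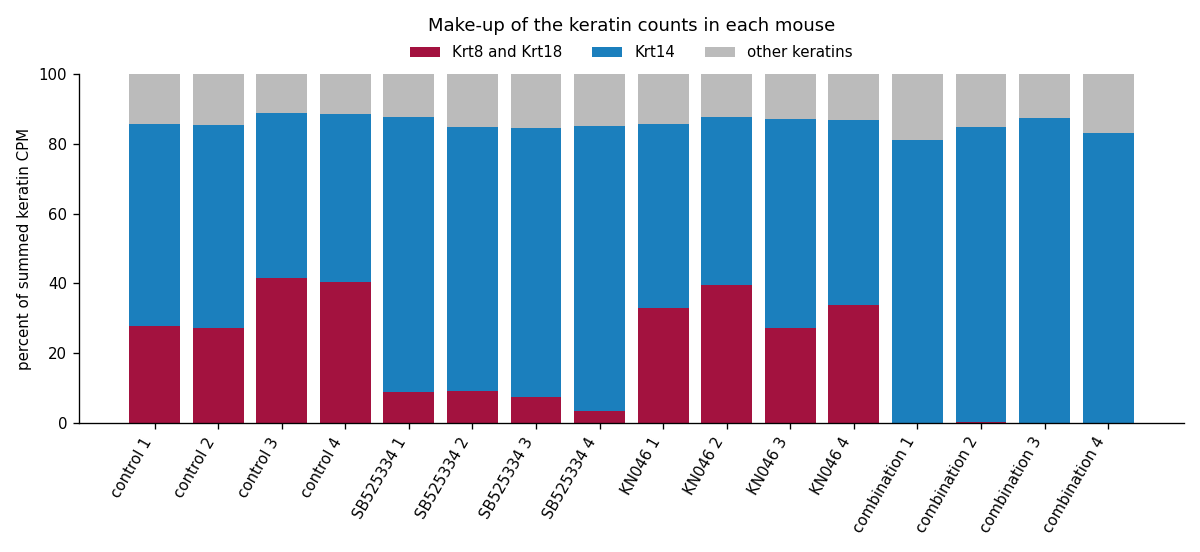
Stacked bars give the percent of all keratin CPM in each of the 16 mice that came from Krt8 with Krt18, from Krt14 and from all other keratins. The Krt8 and Krt18 part is 27.2% to 41.5% in the control mice, at most 9.19% with SB525334 and at most 0.341% with the combination.

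Genes of epithelial cell junctions moved in the direction of Epcam and Cdh1. Of 23 tested junction genes (24 listed), 13 were called lower, against 9.22% of all genes, and 0 higher with SB525334 (1 higher by unadjusted p and in DESeq2), and the median log2 fold change was -2.18. The combination called 14 lower, against 9.74%, and 1 higher, against 1.37%, with a median of -2.82, which stays at -2.82 with genes at 0 placed at their bound. Cldn3 and Cldn2, claudins of tight junctions, were at 15.3 ± 1.54 and 14.0 ± 1.37 CPM in control, at 1.62 ± 0.529 and 2.06 ± 0.148 CPM with SB525334, and at 0 in every combination mouse. Against a floor of 3 counts per mouse, that is at least 98.2-fold lower than control for Cldn3 and at least 89.8-fold lower for Cldn2. Dsg2 and Dsp, a cadherin and the linker protein of desmosomes, fell from 21.6 ± 4.49 and 18.1 ± 1.46 CPM in control to 2.14 ± 0.719 and 2.16 ± 0.676 with SB525334 (log2 fold changes -3.33 and -3.06, edgeR adjusted p 6.03e-06 and 3.03e-06) and 0.0609 ± 0.089 and 0.0804 ± 0.0696 with the combination (SD, n = 4). Hepatocytes also express these claudins and desmosomal genes, and the hepatocyte sums given above moved with them.

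Exceptions in the junction list were named after their values were seen. Jup, the plakoglobin of desmosomes and adherens junctions, was higher with the combination (85.7 ± 4.0 CPM in control against 116.1 ± 9.9, log2 fold change 0.44), a call lost with the similar controls merged (adjusted p 0.139) and without combination mouse 2 (0.0564). With KN046 alone 1 junction gene was called lower, against 2.4% of all genes tested. It was the tight junction scaffold Tjp3 (7.74 ± 0.564 against 2.42 ± 1.56 CPM, log2 fold change -1.67). Called higher were 0, by unadjusted p and in DESeq2 as well. The Tjp3 call was lost without control mouse 3 (adjusted p 0.0534) or 4 (0.0507), without KN046 mouse 1 (0.0702) or 3 (0.056), in a fit of only the groups compared (0.0672) and with the similar controls merged (0.196). Without KN046 mouse 2, 9 junction genes were called lower with KN046. Against SB525334 the combination called 6 junction genes lower, against 3.03% of all genes tested, and 0 higher. The interaction gave the same numbers, with 2.55% of all genes called lower. DESeq2 also called 0 higher in both, and an unadjusted p gave 0 and 1 higher.

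Some regulators of epithelial fate were called lower. Of 12 tested (18 listed), SB525334 called 5 lower, against 9.22% of all genes tested, and 0 higher, with Elf3, Esrp2, Prss8 and Spint2 among those lower. The combination called 6 lower, against 9.74%, and 0 higher, with Ehf among those lower. By unadjusted p and in DESeq2, 0 were higher in both comparisons. Esrp2, a splicing factor of epithelial isoforms, was at 6.78 ± 0.516 CPM in control, 0.913 ± 0.453 with SB525334 (-2.88, edgeR adjusted p 0.000109), 6.03 ± 2.9 with KN046 and 0.0944 ± 0.123 with the combination (SD, n = 4). Elf3 and Ehf, ETS factors of epithelia, were scarce already in control, at 2.04 ± 0.365 and 1.77 ± 1.51 CPM. The hepatocyte sums given above were also lower with SB525334 and with the combination. The part of hepatocyte RNA in the levels of these regulators was not tested. KN046 called 1 of the list lower, against 2.4%, the protease inhibitor Spint1 (log2 fold change -1.14, named after its value was seen, and not called in 20 of 26 alternatives), and 0 higher (2 by unadjusted p, 1 in DESeq2). Where only genes averaging 1 CPM or more were tested, 3 of these regulators were called lower with SB525334 and 3 with the combination, since fewer were tested.

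Of 10 other EMT regulators tested (12 listed), among them Snai2, Twist2 and Prrx1, SB525334 and the combination each called 0 in either direction. By unadjusted p, SB525334 had 1 gene in each direction, the combination had 3 that were higher and 0 lower, and DESeq2 called 1 higher in each. KN046 called 1 higher, against 1.6% of all genes tested. This was the Krüppel-like factor Klf8, at 5.22 ± 0.2 CPM in control and 10.6 ± 1.63 with KN046 (1.02, 0.54 to 1.5, edgeR adjusted p 0.0275), with all KN046 mice above all controls. The Klf8 call did not hold with any 1 control mouse left out (adjusted p 0.0566 to 0.0707), without KN046 mouse 1 (0.0694) or 3 (0.056), with the similar controls merged (0.222) or under scaling to the total count (0.051). The median log2 fold change of the list was 0.04, 0.06 and 0.15 in the 3 comparisons with control.

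Mesenchymal effectors, such as Fn1, Sparc and Cd44, gave no gene called higher in the comparisons with control. Of 16 tested (17 listed), SB525334 called 0 in either direction (by unadjusted p 3 lower and 0 higher, in DESeq2 0 and 0), and KN046 called 0 as well (by unadjusted p 4 higher and 0 lower, in DESeq2 1 and 0). The combination called 2 lower, against 9.74% of all genes tested, and 0 higher, against 1.37% (0 higher by unadjusted p and in DESeq2). These were Lox, the collagen cross-linking oxidase, at 36.0 ± 5.85 CPM in control and 13.0 ± 1.77 with the combination (-1.46, edgeR adjusted p 0.0083), and Cdh2, the N-cadherin that often replaces E-cadherin in EMT, at 65.8 ± 1.96 and 48.1 ± 4.82 CPM (-0.45, edgeR adjusted p 0.0115). The Cdh2 call was lost without combination mouse 4 (adjusted p 0.0522) and with the similar controls merged (adjusted p 0.0821). Without KN046 mouse 2, 4 mesenchymal effectors were called higher with KN046. Fibroblasts carry many of these genes, and 10 fibroblast markers summed to 7706.7 to 8412.9 CPM in control, 7006.6 to 11020.3 with SB525334, 6496.4 to 8825.1 with KN046 and 6373.0 to 11767.6 with the combination. Of these 10 markers, 3 were called lower with the combination, against 9.74% of all genes tested. Named after their values were seen, they were Lum (-2.34, edgeR adjusted p 0.000739), Postn (-0.99, adjusted p 0.0144) and Col1a2 (-0.57, adjusted p 0.0119). With KN046 1 was called lower, against 2.4%, Thy1 (-0.97, edgeR adjusted p 0.0303). The hepatocyte sum given above was also lower with the combination. The part of fibroblasts and of hepatocyte RNA in the levels of the mesenchymal genes, Cdh2 among them, was not tested.

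Of 16 ligands, receptors, Smads and early targets of TGF-β, all tested, SB525334 called 3 lower, against 9.22% of all genes tested, and 0 higher. The combination called the same 3 lower, against 9.74%, and 0 higher. These were the inhibitors of differentiation Id3 and Id2 and the inhibitory Smad7. Id3 was at 33.1 ± 9.02 CPM in control, 12.8 ± 1.95 with SB525334 and 9.37 ± 3.54 with both agents (SD, n = 4), with log2 fold changes of -1.37 and -1.82 (edgeR adjusted p 0.00346 and 0.000207). Id2 was at 38.3 ± 4.53, 15.2 ± 4.07 and 21.8 ± 5.39 CPM (-1.33 and -0.81, edgeR adjusted p 0.000638 and 0.0307). Smad7, an early target of the receptor, was at 55.3 ± 1.61, 37.8 ± 5.15 and 39.2 ± 2.97 CPM (-0.55 and -0.49, edgeR adjusted p 0.0295 and 0.0484). The Smad7 call with SB525334 was lost with any 1 control mouse left out and without SB525334 mouse 1 or 2 or combination mouse 1, and with the similar controls merged (adjusted p 0.153). Its combination call was lost with any 1 control, SB525334 or combination mouse or KN046 mouse 4 left out, under RLE scaling (adjusted p 0.0584) and with the similar controls merged (0.208). The Id2 call with the combination was lost without control mouse 3 or 4 or combination mouse 1 or 3, and with the similar controls merged (adjusted p 0.137). KN046 called 0 of the 16 in either direction (2 higher and 0 lower by unadjusted p, 1 and 0 in DESeq2).

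**Figure D5:**
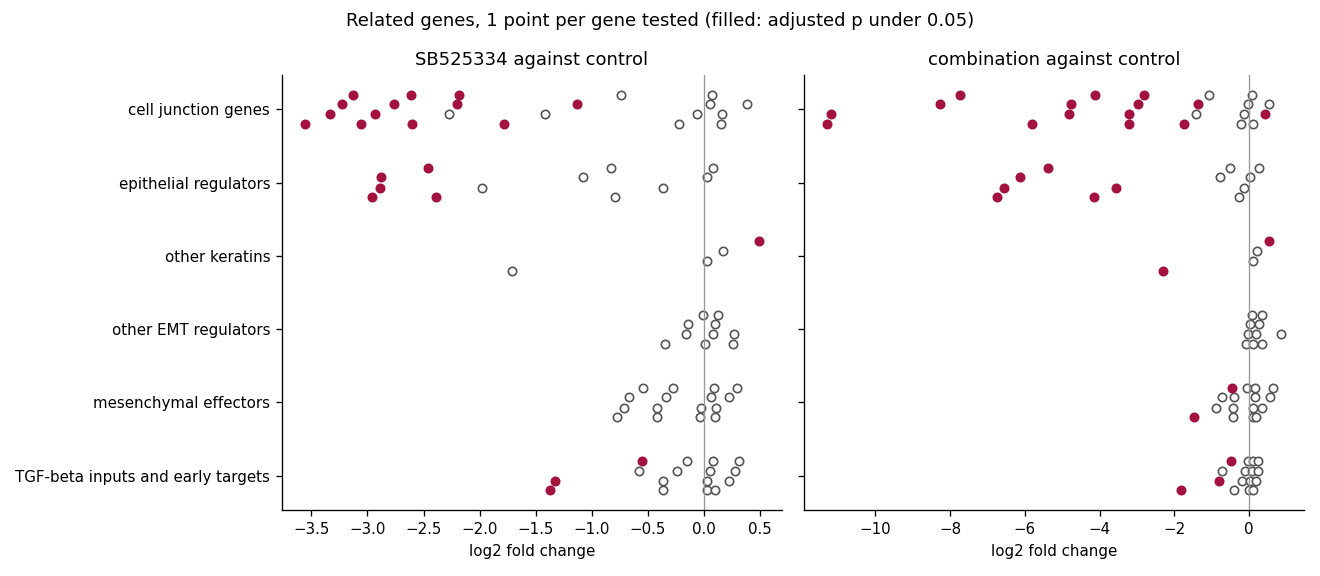
Log2 fold changes of the genes of 6 related lists, 1 point for each gene tested, for SB525334 against control (left) and the combination against control (right), with axes of different range. Filled points passed an adjusted p of 0.05 and lie mostly to the left of 0 among the junction genes (13 of 23 with SB525334) and the epithelial regulators (5 of 12), and are few among the EMT regulators and mesenchymal effectors.

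Other cells of the tumor differed between groups as well. Of 6 endothelial markers, 5 were called lower with SB525334, against 9.22% of all genes tested, and 3 with the combination, against 9.74%. Their summed levels were 116.2 to 240.8 CPM in control, 53.9 to 94.5 with SB525334, 149.6 to 210.6 with KN046 and 96.2 to 114.6 with the combination. Macrophage markers summed to 1693.3 to 1819.9, 1564.5 to 2475.8, 814.5 to 1721.6 and 1669.4 to 2413.8 CPM in the same order. T cell markers summed to 16.1 to 19.4, 8.91 to 14.7, 3.07 to 8.31 and 15.4 to 30.2 CPM. Macrophages and fibroblasts also express Vim and Zeb2. The part of these cells in the levels of the 10 genes was not tested.

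The pattern of each gene over the 16 mice was compared with that of 12829 others by Pearson's r of log2(CPM + 1), given as a description since the mice share groups and treatments. Nearest to Krt8 were the liver plasma protein genes Ahsg, Rbp4 and Hpx, each at 0.993, and nearest to Krt18 were Hpx (0.995), Ahsg and Ambp (0.994). After removing the group means, these r values were 0.727 to 0.809. The 3 genes nearest to Epcam were Adgre5 (0.912), Deptor (0.887) and Map3k15 (0.877), and Adgre5 (0.896), Lpin2 (0.889) and Clmn (0.885) were nearest to Cdh1. Neither list of 3 holds a plasma protein gene, but the values of lower-ranked genes are not given. The part of hepatocyte RNA in the levels of Epcam and Cdh1 was not tested. Krt19 was nearest to Exoc6 (0.845), Ciart (0.84) and Smad7 (0.82), and Vim to Med10 (0.944), Sqstm1 (0.942) and H3f3b (0.932). For the transcription factors, the nearest genes were Dop1a (0.921) and Aspm (0.884) for Zeb1, Tmem131l (0.923) and Cdc14b (0.895) for Zeb2, Thnsl1 (0.86) and Artn (0.825) for Snai1, and Laptm4a (0.943) and Gabarap (0.934) for Twist1.

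Antisense or overlapping genes in the annotation share exon bases with Krt8, Krt19, Vim, Zeb1, Zeb2 and Snai1. Reads of these genes and their antisense partners cannot be told apart without strand. Mir5129 shares 5 exon bases with Zeb2 on the same strand, where strand does not help. The partners are not among the genes counted.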

How the data were processed

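Per the labels and methods of the study, the authors used Cutadapt 2.7 for trimming, HISAT2 2.2.1 for alignment to GRCm39 and HTSeq 2.0.4 for counting, and deposited raw counts per gene for each mouse. How strand and multiply aligned reads were handled is not given in the sources used here. The deposited normalized counts and DESeq2 1.38.3 results were not used.

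The raw counts entered edgeR 4.0.16 under R 4.3.3. Genes were kept by filterByExpr (minimum count 10), scaled by TMM and fitted by quasi-likelihood over the 4 groups, with Benjamini-Hochberg adjustment over all genes tested and a threshold of 0.05. The biological coefficient of variation was 20.1%. Intervals are from the same fit, and CPM values use the same scaling. Groups were taken from the treatment labels of the samples. The labels do not say more of the mice than their group, so p-values measure the spread between these samples. Gene symbols and positions came from GENCODE M39, which held 21770 of the 21959 identifiers. Lengths are those of the canonical transcript, and promoters are from the RefSeq table (GRCm38.p6), placed in GRCm39 by exact match. A floor of 3 counts per mouse was used where a group was at 0.

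The 10 genes and the lists of related genes and cell markers were chosen with earlier results of these data known. From each list of related genes the text names at most the 4 called genes with the largest change against control, among those whose higher group averaged 1 CPM or more, and others only where stated or where 5 or fewer were called. Some genes of these lists are not reported here. For each of the 10 genes, the 3 genes with the most similar pattern were taken.

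Alternatives were DESeq2 1.42.0, other scalings and filters on low counts, separate fits of the groups compared, a block for the replicate number, similar controls merged, the study's thresholds (a fold of 2 at an unadjusted p of 0.05) and each mouse left out in turn. Counts for the lists of related genes under these alternatives were chosen after seeing the data. The same code was tested on simulated data. Of 24 same-numbered pairs of mice of different groups, 10 had a correlation of deviations above 0.1, and of 72 other pairs 19 did. Because some control libraries resemble each other, these correlations depend on each other and cannot decide whether the numbers mark shared handling. The main fit treated the mice as unpaired, and the replicate block was an alternative.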

Additional observations from a re-analysis of the deposited data

Results flagged for a closer look

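Within groups of 4 mice, the most extreme mouse was compared with the rest by Dixon's test, which flags about 1 in 20 groups by chance. Of 40 groups of the 10 genes, 4 were flagged, where chance gives 2. In the combination group, Epcam was at 1.04 CPM in mouse 4, above the other mice, and Krt8 was at 0.883 CPM in mouse 2, on 16 counts. Vim was at 5658.8 CPM in combination mouse 2, the highest of its group. Krt18 was at 8.79 CPM in SB525334 mouse 4, the lowest of its group, which also had the lowest hepatocyte marker sum of that group.

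For the keratin pair, the effect of SB525334 depended on whether KN046 was given, by a log2 difference of -5.63 for Krt8 and -5.11 for Krt18 in edgeR's interaction test. The hepatocyte markers moved the same way, with 14 of 15 called lower in that test, against 2.55% of all genes tested. Their part in the result was not tested.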

How the results depend on the processing

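Across 26 alternatives the 10 genes gave 1550 values, of which 1531 stayed on their side of the threshold, 18 gained a call and 1 lost it, and 0 called values changed sign. With SB525334 against control, 4 genes instead of 2 were called by DESeq2 (Cdh1, Krt19, Krt8 and Krt18) and 4 by the study's thresholds (Epcam, Krt19, Krt8 and Krt18). Leaving out 1 mouse gave 2 to 4 genes with SB525334, 4 without control mouse 4, and 0 to 1 with KN046, the 1 being Vim without KN046 mouse 2. DESeq2 also called 1 with KN046. The range was 4 to 4 for the combination against control, 3 to 5 against KN046, 2 to 2 against SB525334 and 2 to 3 for the interaction. Fitted with the replicate block, the counts called were 2 with SB525334, 0 with KN046, 4 with the combination, 4 against KN046, 2 against SB525334 and 2 for the interaction, so the block changed no call among the 10 genes. In the related lists it lost Smad7 with the combination (adjusted p 0.0538) and Spint1 with KN046 (adjusted p 0.0503). Among 21 genes of the related lists, 832 of 930 called values kept their call, 98 lost it and 0 changed sign. The combination count of the TGF-β list went from 3 to 1 with the similar controls merged. The median of all genes moved by at most 0.043 (log2) under other scalings. Depth limits the keratins in the combination and Epcam, at 22 or fewer counts per mouse there, so the size of their fitted folds is uncertain.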
